A study of Mus musculus with 12 samples.

Results

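The comparison set 3 female mice labelled mtOGG1 against 3 female control mice, chosen by their sample titles, which are 6 of the 12 mice of the series. All 12 were C57BL6/J mice aged 13 months, and total RNA of the hippocampus was read on an nCounter gene panel. By the series title the mtOGG1 mice express OGG1, a DNA repair enzyme, in mitochondria. The genotype is given only as mtOgg1 or Control, and the promoter of the transgene, the cells that express it and the relation of the controls to the mtOGG1 mice are not given in the sources used here. The remaining 6 mice are 3 mtOGG1 and 3 control males, which shared the estimate of the spread and served for the comparison between the sexes. Of the 770 genes on the panel, 608 exceeded 20 normalized counts in at least 3 of the 12 mice and were tested. Values under 20 had been raised to 20 in the deposited table, and a gene at this floor has no measured level.

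OGG1 (8-oxoguanine DNA glycosylase) cuts the oxidised base 8-oxoguanine out of DNA as the first step of base excision repair. Oxidised mitochondrial DNA that reaches the cytosol can engage DNA sensors such as cGAS and the NLRP3 inflammasome, which lead to interferon and interleukin responses in microglia and other cells. The hippocampus, which serves memory, holds densely packed excitatory neurons, and it borders the thalamus and the choroid plexus of the ventricles.

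Per female, the whole counts that underlie the measured values added up to between 281838 and 358969, the highest negative control probe reached 14 counts, and 168 to 206 genes stood at the floor in a female. The labels number the samples of a group and call them separate samples, so p-values measure the spread between these samples. Uty and Kdm5d, which lie on the Y chromosome, stood at the floor in all 6 females. The summed level of the 6 neuron markers was 26382, 20814 and 18162 in mtOGG1 females, against 23061, 23207 and 20846 in control females. All 6 exceeded the floor in every female, as did the 6 oligodendrocyte, 4 microglia, 4 endothelial and 3 astrocyte markers on the panel, whereas the 4 lymphocyte and 3 granulocyte and mast cell markers stood at the floor in all 6. In such bulk samples fewer cells of a type and less RNA per cell cannot be told apart.

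In each group the female numbered 3 stood apart from the other females. The first principal component of the 6 females held 42.9% of the variance, with scores of 5.69 for mtOGG1 female 3 and 4.81 for control female 3, against -4.21 to -0.966 for the other 4. Ttr, which encodes transthyretin, the main secreted protein of the choroid plexus, stood at 46.8, 54.6 and 826 in mtOGG1 females, against 20, 66.4 and 1187 in control females. Slc17a6, whose product loads glutamate into vesicles mainly in thalamic and other subcortical neurons, had 515, 618 and 1374 in mtOGG1 females, against 195, 392 and 1208 in control females. Both genes were highest in the female numbered 3 of each group. Among the 608 tested genes, 61 were higher and 81 were lower in both females numbered 3 than in all 4 others, and those named from here were picked for this pattern after their values were seen. Agt, which encodes angiotensinogen, made by astrocytes, had 126, 194 and 280.0 in mtOGG1 females, against 67.2, 62.5 and 371 in control females. It was the only 1 of the 11 tested astrocyte genes with this pattern. Of the 28 tested synapse and neuron genes, 12 were lower and 0 higher in both females numbered 3 than in all 4 others. Among the lower, Nrgn, encoding the postsynaptic protein neurogranin, had 6688, 4919 and 3520.0 in mtOGG1 females, against 6346, 6992 and 4849.7 in control females, and outside that list Tbr1, a transcription factor of glutamatergic cortical neurons, had 406, 322 and 178 in mtOGG1 females, against 365, 381 and 276 in control females. One such mouse belonged to each group, and the log2 fold change of Slc17a6 between mtOGG1 and control females was 0.75 ± 0.64 (SE, limma adjusted p = 1). The other 4 females also differed by group on the first component, at -2.44 and -0.966 in mtOGG1, against -4.21 and -2.89 in control females. Among these 4, Slc17a6 and Agt were higher in both mtOGG1 than in both control females, whereas Ttr, Nrgn and Tbr1 overlapped. The part of this pattern in the results below was not tested beyond the fits with Slc17a6 or Ttr as a covariate and without both females numbered 3.

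**Figure D1:**
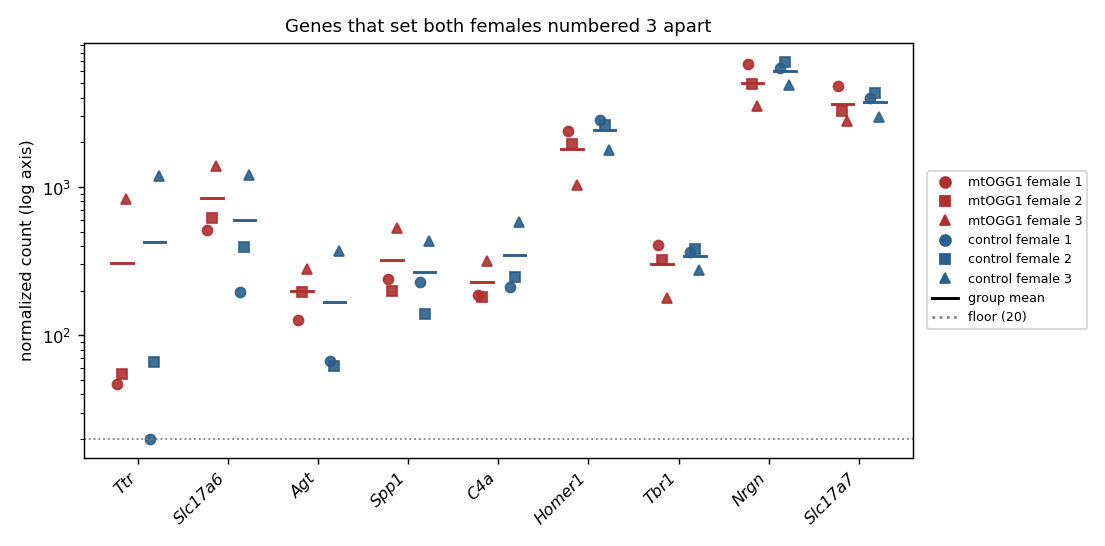
Normalized counts on a log axis of 9 genes that set the females numbered 3 apart, with 1 symbol per mouse, mtOGG1 females in red left of control females in blue, group means as bars and the floor of 20 as a dotted line. The triangles, which are the females numbered 3, lie highest in both groups for Ttr, Slc17a6, Agt, Spp1 and C4a and lowest in both groups for Homer1, Tbr1, Nrgn and Slc17a7.

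No gene passed an adjusted p of 0.05 between mtOGG1 and control females (limma, 0% of 608). At an unadjusted p under 0.05 there were 18 genes (2.96% of genes tested), of which 15 (2.47%) were lower and 3 (0.493%) higher in mtOGG1 females. The groups did not overlap in 32 genes (5.26%). In 21 of them (3.45%) all 3 mtOGG1 females lay below all 3 control females, and in 11 (1.81%) all lay above. With each mouse centred on its median gene the split of these non-overlapping genes turned to 50 higher and 16 lower, and with scaling on panel reference genes to 28 higher and 18 lower, so that the direction of small differences depends on the scaling. An exact test of 3 mice against 3 cannot go below a two-sided p of 0.10, the rate of separation for an untied gene without a difference. In the main setting the 5.26% without overlap lay below this rate, and the 2.96% lay below the rate of 0.05 that its threshold allows. Lack of overlap alone therefore marks no gene as changed. Fold changes were small for most genes, with quartiles of -0.10 and 0.077 on the log2 scale, a median of -0.0054 and a median standard error of 0.15. Only 6 genes passed 1.5-fold, the immediate early genes Arc and Fos, Cdkn1a and Ptgs2 on the lower side and Slc17a6 and Agt on the higher side. The count of adjusted calls stayed 0 without any 1 of 5 females, and became 2, Arc and Fos, without control female 3. The count at an unadjusted p under 0.05 lay between 11 without mtOGG1 female 2 and 34 without mtOGG1 female 1.

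The immediate early genes had the median furthest from 0 of the 27 families. These genes are transcribed within minutes of synaptic activity, and several of them, such as Fos and Egr1, encode transcription factors, whereas Arc and Homer1 encode synaptic proteins. All 9 tested members had log2 fold changes below 0, with a median of -0.48, against -0.0054 over all 608 genes, and Atf3 was not measured above 20 in any female. Arc, whose protein regulates glutamate receptor endocytosis, had 562, 397 and 366 in mtOGG1 females, against 827, 2037 and 785 in control females. Its log2 fold change was -1.34 ± 0.28 (SE, limma adjusted p = 0.194). The groups did not overlap for Arc, and the spread lay mostly within the controls, where control female 2 stood far above the others. Fos had 264, 209 and 249.8 in mtOGG1 females, against 454, 972 and 352 in control females, with a log2 fold change of -1.16 ± 0.30 (SE, adjusted p = 0.461, limma). Again the groups were apart and control female 2 was highest. Ptgs2, encoding the neuronal activity-induced cyclooxygenase 2, had 94.8, 86.4 and 84.8 in mtOGG1 females, against 139.5, 169 and 114 in control females, with a log2 fold change of -0.64 ± 0.18 (SE, adjusted p = 0.497, limma). For Ptgs2 the 3 mtOGG1 females lay close together and below every control.

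The other members overlapped between the groups. Egr1 had 2918, 1980.1 and 1580.0 in mtOGG1 females, against 3081, 4109 and 2308 in control females, a log2 fold change of -0.56 (adjusted p = 1, limma). Homer1, whose short activity-induced form alters synaptic scaffolds, had 2378, 1956 and 1033 in mtOGG1 females, against 2839, 2607 and 1770.4 in control females, a log2 fold change of -0.48 (adjusted p = 1, limma). Homer1 was also lower in both females numbered 3, which had the most Slc17a6, than in all 4 others. To complete the family, and chosen after their values were seen, Bdnf, a neurotrophin, had a log2 fold change of -0.45, Crem, a transcription factor of the cAMP response, -0.33, Jun -0.24 and Myc -0.11. Without control female 2 the log2 fold changes were -0.89 for Arc and -0.73 for Fos, and the family median was -0.35. Without control female 3 Arc, at -1.58, and Fos, at -1.46, passed the test, each at an adjusted p of 0.0472 (limma). With Slc17a6 as a covariate Arc stood at -1.21 (adjusted p = 0.0673, limma) and the family median at -0.30. With Ttr as a covariate, a fit added after seeing the data, Arc stood at -1.33 and passed (adjusted p = 0.0425, limma). Without both females numbered 3 Arc stood at -1.46 and Fos at -1.49 (adjusted p = 0.128 each, limma).

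**Figure D2:**
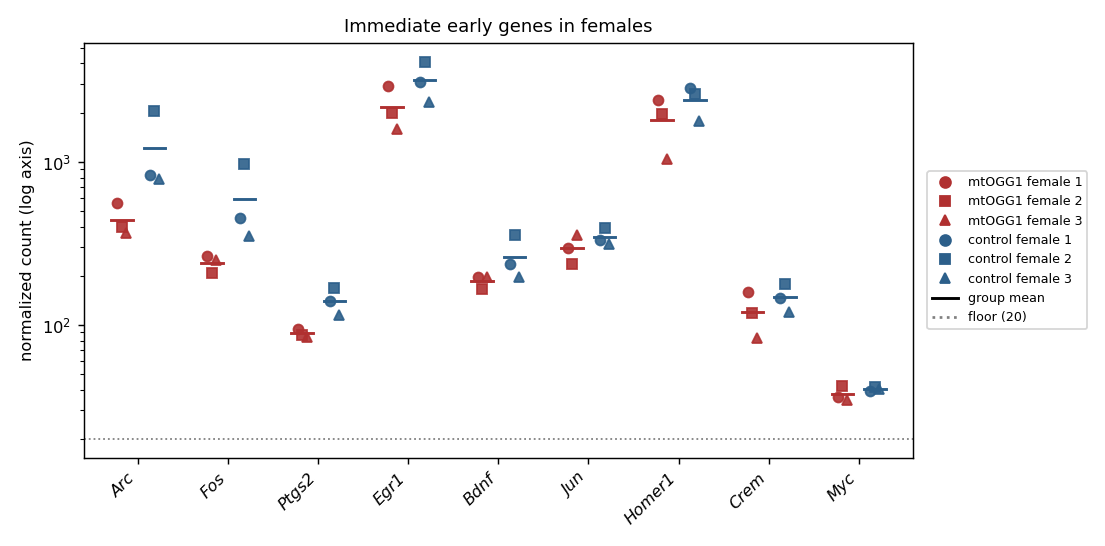
Normalized counts on a log axis of the 9 tested immediate early genes in order of p, with 1 symbol per mouse, mtOGG1 females in red left of control females in blue, group means as bars and the floor of 20 as a dotted line. The mtOGG1 and control symbols do not overlap for Arc, Fos and Ptgs2, and control female 2, the blue square, is highest for Arc and Fos.

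The promoters of Fos and Ptgs2 are shown because these genes and Arc had the smallest p, and promoters of immediate early genes are known for sites of the activity-regulated factor CREB. RefSeq's promoter table of build GRCm38.p6 gives 250 bases before to 50 bases after the start of transcription, on the plus strand, at chr12:85473640-85473939 for Fos and chr1:150099781-150100080 for Ptgs2. Capitals mark TGACG or its reverse complement CGTCA, the core letters of a CREB site, searched on both strands.
Fos: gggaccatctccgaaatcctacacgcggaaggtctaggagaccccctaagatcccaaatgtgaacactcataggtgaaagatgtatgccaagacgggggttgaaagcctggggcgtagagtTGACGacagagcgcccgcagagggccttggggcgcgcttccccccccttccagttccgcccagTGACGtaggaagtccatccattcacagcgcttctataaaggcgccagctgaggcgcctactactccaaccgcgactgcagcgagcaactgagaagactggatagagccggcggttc
Ptgs2: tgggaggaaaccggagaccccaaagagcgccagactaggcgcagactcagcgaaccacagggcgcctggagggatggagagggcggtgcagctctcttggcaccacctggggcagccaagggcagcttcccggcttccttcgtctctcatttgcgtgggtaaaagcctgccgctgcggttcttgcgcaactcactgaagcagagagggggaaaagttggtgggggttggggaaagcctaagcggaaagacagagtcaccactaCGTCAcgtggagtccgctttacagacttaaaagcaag
The letters occurred 2 times in the Fos window and 1 time in that of Ptgs2. The letters stood in at least 1 promoter of 4 of the 5 tested immediate early genes that the table holds, against 30.6% of the 484 tested genes it holds and 20.8% of all 32851 promoters. A match of letters is a description and shows no binding.

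Outside the immediate early genes, the genes of smallest p came from several families, and each had an adjusted p of 1. Ifitm2, an interferon-induced membrane protein that blocks virus entry, had 165, 139.9 and 151 in mtOGG1 females, against 167, 216 and 239.8 in control females, so that the groups did not overlap, with a log2 fold change of -0.44 ± 0.14 (SE). Cdkn1a, the p53 target that encodes the cell cycle inhibitor p21, had 138, 118 and 73.5 in mtOGG1 females, against 197, 139.8 and 181 in control females, a log2 fold change of -0.68. All 3 mtOGG1 females lay below the controls for Cdkn1a, with mtOGG1 female 3 the lowest, but 138 and 139.8 were nearly level. The same holds for 165 and 167 in Ifitm2. Without mtOGG1 female 3 the log2 fold change of Cdkn1a was -0.41. Enpp6, a choline phosphodiesterase of newly forming oligodendrocytes, had 57.3, 47.8 and 49.0 in mtOGG1 females, against 63.4, 69.4 and 72.4 in control females, a log2 fold change of -0.41 without overlap. Itga7, an integrin subunit found on astrocytes, had 46.8, 39.8 and 43.4 in mtOGG1 females, against 53.3, 65.4 and 55.4 in control females, a log2 fold change of -0.41, also without overlap. Tgm2, a transglutaminase, had 30.4, 40.9 and 37.7 in mtOGG1 females, against 48.2, 56.5 and 49.8 in control females, a log2 fold change of -0.50. Its groups did not overlap, at levels near the floor.

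Among the same 20 genes, 3 were higher in mtOGG1 females. Csf3r, the receptor for granulocyte colony-stimulating factor, had 35.1, 42.1 and 33.0 in mtOGG1 females, against 26.6, 26.8 and 27.1 in control females, a log2 fold change of 0.43, with mtOGG1 female 2 highest and no overlap. Ercc2, a helicase of transcription and nucleotide excision repair, had 222, 202 and 189 in mtOGG1 females, against 180.1, 159.6 and 162 in control females, a log2 fold change of 0.29, again without overlap. Kcnd1, a potassium channel subunit, had 36.3, 38.7 and 37.7 in mtOGG1 females, against 30.4, 20 and 33.9 in control females, a log2 fold change of 0.44, with control female 2 at the floor, so that its fold is understated. On the lower side, Mto1, which modifies mitochondrial tRNAs, had 212, 208 and 186 in mtOGG1 females, against 255, 243 and 242 in control females, a log2 fold change of -0.29 without overlap. Mto1 is also a reference gene of such panels, and the labels do not name the genes that set the deposited scaling. Vim, encoding the intermediate filament vimentin of reactive astrocytes and vessels, had 156, 189 and 228 in mtOGG1 females, against 254, 201 and 321 in control females, a log2 fold change of -0.43. Its groups overlapped, and without control female 3 the value was -0.26. Kdm2b, a histone demethylase, had a log2 fold change of -0.28, and Casp2, an initiator caspase, -0.30, both without overlap. Cd6, a lymphocyte receptor, had -0.39 with values between 20 and 38.7 counts, and Grin2a, a subunit of the NMDA glutamate receptor, -0.44, where control female 2 was highest at 436 counts. Without that mouse the Grin2a value was -0.17.

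**Figure D3:**
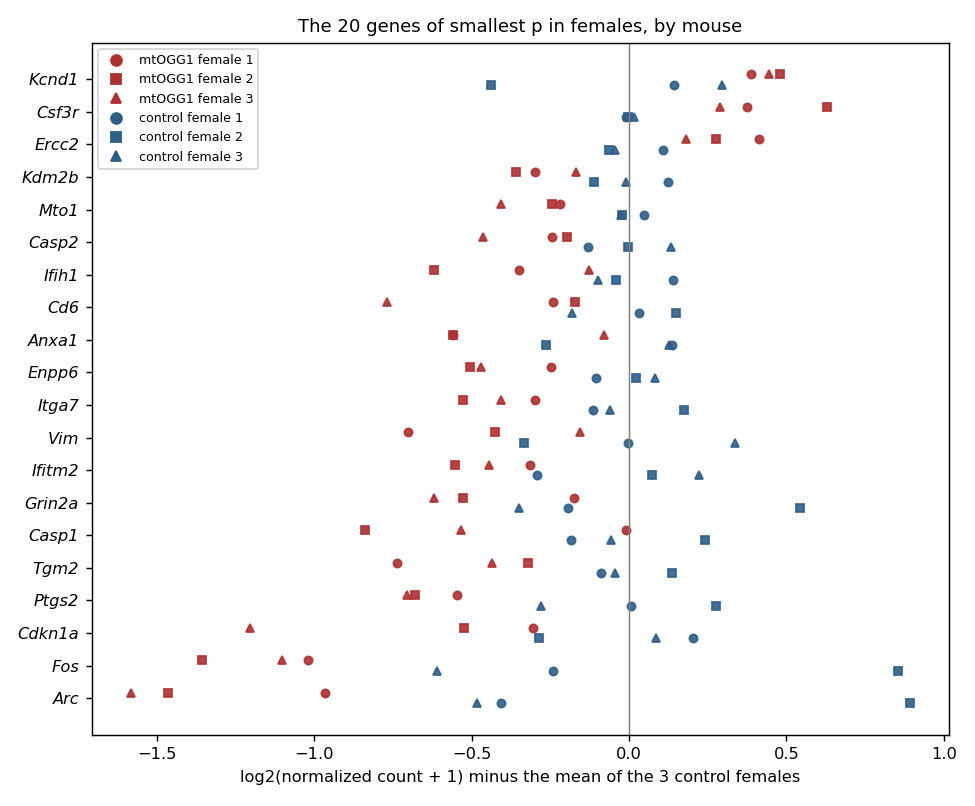
The 20 genes of smallest p in females by mouse, as log2(normalized count + 1) minus the mean of the 3 control females, with mtOGG1 females in red above control females in blue and 1 symbol per mouse number. Kcnd1, Csf3r and Ercc2 lie to the right and the other 17 genes to the left, and control female 2, the blue square, lies far to the right of the other control females for Arc, Fos and Grin2a.

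Several central genes of nucleic acid sensing and inflammation, with which the series title is concerned, stood at the floor in females. Mb21d1, which encodes the DNA sensor cGAS, Tmem173, which encodes its partner STING, and Il1b and Tnf, both cytokine genes, were at 20 in all 6 females, and Nlrp3, the inflammasome sensor, at 25.4 in control female 1 and at 20 in the other 5. At this depth no difference could be detected in them. Of 26 nucleic acid sensing and interferon genes on the panel 8 were at 20 throughout the females, and of the 17 tested, 6 had log2 fold changes above 0 and 11 below 0, with a median log2 fold change of -0.040 (against -0.0054 over all genes). Besides Ifitm2, Ifih1, the cytosolic sensor of long double-stranded RNA, had 70.2, 58.0 and 82.0 in mtOGG1 females, against 98.9, 87.2 and 83.7 in control females, a log2 fold change of -0.37 without overlap. Here 82.0 and 83.7 were nearly level. Ifitm3, a close relative of Ifitm2, had 167, 185 and 172 in mtOGG1 females, against 223, 173 and 317 in control females, a log2 fold change of -0.40, with control female 3 highest. Because the Ifitm genes are similar in sequence, probes for them could share signal, which was not tested. Gbp2, an interferon-induced GTPase, ran the other way at 42.1, 48.9 and 47.1 in mtOGG1 females, against 46.9, 27.8 and 37.3 in control females, a log2 fold change of 0.32. No member passed the test.

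Casp1, which encodes the protease that matures interleukin 1 beta, had 57.3, 31.9 and 39.6 in mtOGG1 females, against 50.7, 68.4 and 55.4 in control females, a log2 fold change of -0.46 (adjusted p = 1, limma). Its groups overlapped, with mtOGG1 female 2 lowest, and without that mouse the value was -0.27. Of the 31 tested Toll-like receptor and NF-kB genes 12 lay above 0 and 19 below, with a median of -0.036. Nfkbia, the inhibitor that NF-kB itself induces, had 59.7, 43.2 and 73.5 in mtOGG1 females, against 78.7, 71.4 and 75.8 in control females, a log2 fold change of -0.38. Irak3, a brake on Toll-like receptor signals, had 29.2, 36.4 and 29.2 in mtOGG1 females, against 25.4, 25.8 and 27.1 in control females, a log2 fold change of 0.26 without overlap, and Traf2, an adaptor of TNF receptors, had -0.17. Of 45 cytokine, chemokine and receptor genes 22 were at the floor in all 6 females, and the 19 tested had a median of -0.033 with 8 above 0 and 11 below. Csf3r was higher, as given above. Il2rg, the shared gamma chain of interleukin receptors, had 20, 28.4 and 25.4 in mtOGG1 females, against 20 in each of the 3 control females, and Tnfrsf12a, the receptor for TWEAK, had a log2 fold change of -0.34. Cx3cl1, the neuronal chemokine read by microglia, had 1172, 997 and 702 in mtOGG1 females, against 1162, 1167 and 1067 in control females, a log2 fold change of -0.27. It was lowest in mtOGG1 female 3, and without that mouse the value was -0.064.

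Microglia genes showed no common direction. The summed level of the 4 microglia markers was 1611, 1278 and 1204 in mtOGG1 females, against 1304, 1222 and 1492 in control females, so that the groups overlapped. Of the 18 tested homeostatic microglia genes 7 lay above 0 and 11 below, with a median log2 fold change of -0.036. Those below include the neuronal chemokine gene Cx3cl1, at -0.27, which this list also holds. Mertk, the receptor with which microglia and astrocytes engulf dying cells and synapses, had 198, 235 and 184 in mtOGG1 females, against 251, 239.9 and 260.2 in control females, a log2 fold change of -0.29 without overlap (adjusted p = 1, limma). Tmem119, a marker of resident microglia, had -0.17 and Olfml3, a secreted microglia protein, -0.18. The 8 tested disease-associated microglia genes had a median of 0.075, and 4 further ones, Cst7, Clec7a, Itgax and Ch25h, were at 20 throughout the females. Lilrb4a, an inhibitory receptor, had a log2 fold change of 0.23 at 28.1, 22.8 and 30.2 in mtOGG1 females, against 20, 20 and 29.4 in control females.

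The 8 tested complement genes split into 4 above 0 and 4 below with a median of -0.012. C4a, a complement component made by astrocytes and other glia, had 186, 182 and 317 in mtOGG1 females, against 211, 249 and 577 in control females, a log2 fold change of -0.50 ± 0.33 (SE). Its highest value in each group belonged to the female numbered 3, and without control female 3 the log2 fold change was -0.053. C1qb, a chain of the C1q complex made by microglia, had 957, 813 and 872 in mtOGG1 females, against 965, 831 and 1162 in control females, a log2 fold change of -0.15, and C5ar1, a receptor for complement fragment C5a, 0.19. The 14 Fc receptor and phagocyte genes had a median of -0.068 with 4 above 0 and 10 below, Dock2, a leukocyte signalling protein, at -0.30, Fcgr2b, the inhibitory Fc receptor, at -0.18, and Cd36, a scavenger receptor, at 0.17 with all 3 controls at the floor. Without both females numbered 3 the median of this family was 0.11. For antigen presentation, the median over 9 genes was -0.10, with 4 above 0 and 5 below. Among them Cd74, the invariant chain of MHC class II, had 76.1, 107 and 117 in mtOGG1 females, against 117, 98.1 and 192 in control females, a log2 fold change of -0.40, which was -0.12 without control female 3. H2-T23, a nonclassical MHC class I gene, had 73.7, 80.8 and 54.7 in mtOGG1 females, against 78.7, 114 and 79.2 in control females, a log2 fold change of -0.37. Calr, a chaperone of the endoplasmic reticulum, had -0.18, whereas Psmb8, a subunit of the immunoproteasome, had 85.4, 73.9 and 73.5 in mtOGG1 females, against 77.4, 45.6 and 80.3 in control females, a log2 fold change of 0.23, which was -0.025 without control female 2. The family median was 0.050 without control female 3.

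The 20 oligodendrocyte and myelin genes lay around 0, with 12 above 0 and 8 below, the median being 0.013. Enpp6 was the exception in size, as given above. Opalin, a protein of myelinating oligodendrocytes, had 560.5, 516 and 501 in mtOGG1 females, against 440.2, 631 and 500.0 in control females, a log2 fold change of 0.020 whose 95% interval ran from -0.27 to 0.31. Gal3st1, which makes the myelin lipid sulfatide, had 0.16. The ranges of both groups overlapped for Opalin. Of the 11 astrocyte genes 8 lay above 0 and 3 below, with a median of 0.10, the highest of the families with at least 5 tested members. Gja1, encoding the gap junction protein connexin 43, had 2198, 2001 and 2311 in mtOGG1 females, against 1985, 1818 and 2162 in control females, a log2 fold change of 0.13, and Nwd1 0.13. Gdpd2, a phosphodiesterase, had 43.3, 55.7 and 58.5 in mtOGG1 females, against 40.6, 36.7 and 54.3 in control females, a log2 fold change of 0.26. Itga7, at -0.41, lay opposite to them, and Agt, at 0.71, was -0.0054 with Slc17a6 as a covariate.

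Of 30 reactive glia and injury genes 7 were at 20 throughout the females, and the 22 tested had a median of -0.075, with 8 above 0 and 13 below. Anxa1, encoding the anti-inflammatory protein annexin A1, had 20, 20 and 28.3 in mtOGG1 females, against 33.0, 24.8 and 32.8 in control females, a log2 fold change of -0.40 (adjusted p = 1, limma), which is understated because 2 mtOGG1 females were at the floor. Srgn, a proteoglycan of blood and endothelial cells, had 85.4, 99.0 and 106 in mtOGG1 females, against 119, 109 and 114 in control females, a log2 fold change of -0.24 without overlap. Lcn2, a secreted protein of reactive astrocytes, exceeded the floor in control female 2 alone, at 29.7. The 12 endothelial and vessel genes had a median of -0.077 with 5 above 0 and 7 below. Their 4 markers summed to 319, 299 and 272 in mtOGG1 females, against 359, 325 and 278 in control females. Tie1, an endothelial receptor kinase, had 28.1, 34.1 and 33.9 in mtOGG1 females, against 48.2, 43.6 and 38.5 in control females, a log2 fold change of -0.43 without overlap (adjusted p = 1, limma). Slc2a1, the glucose transporter of the blood-brain barrier, had 170.8, 160.4 and 156 in mtOGG1 females, against 171.2, 179 and 205 in control females, a log2 fold change of -0.19. Its groups did not overlap either, but 170.8 and 171.2 were nearly level. Esam, an endothelial adhesion molecule, had -0.27, Tmem204 -0.25 and Ly6a, a membrane protein of brain endothelium, -0.20. Of the members above 0, and named after their values were seen, Flt1, a receptor for vascular endothelial growth factor, had 74.9, 76.2 and 70.7 in mtOGG1 females, against 64.7, 69.4 and 61.1 in control females, a log2 fold change of 0.18 without overlap. Cldn5, a tight junction protein of the blood-brain barrier, had 0.21 with overlapping groups. Without mtOGG1 female 1 the family median was -0.19.

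Synapse and neuron genes lay mostly close to 0, apart from Grin2a, given above. Of the 28 synapse and neuron genes 11 lay above 0 and 17 below, with a median of -0.028. Syp, encoding the synaptic vesicle protein synaptophysin and among them the most abundant, had 6574, 5466 and 5368 in mtOGG1 females, against 5428, 5354 and 5767 in control females. Syn2, encoding synapsin 2, had 2895, 2482 and 2610.3 in mtOGG1 females, against 2410.1, 2332 and 2393 in control females, a log2 fold change of 0.16 without overlap. Nrgn, whose values are given above, had -0.30, and Pnoc, the precursor of nociceptin, 0.30. In Nrgn the lowest value of each group came from the female numbered 3.

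The mouse Ogg1 transcript stood at 37.4, 55.7 and 39.6 in mtOGG1 females, against 46.9, 41.6 and 43.0 in control females, a log2 fold change of -0.0075 whose 95% interval ran from -0.38 to 0.36 (adjusted p = 1, limma). Whether the probe also reads the transgene is not given in the labels, so that these levels do not check the genotype. Over 34 DNA repair genes the median was 0.029, with 18 above 0 and 16 below. Besides Ercc2, the base excision glycosylases Nthl1 and Mpg had log2 fold changes of 0.30 and 0.27, with overlapping groups at 31.6, 33.0 and 43.4 in mtOGG1 females, against 20, 29.7 and 39.6 in control females for Nthl1 and at 50.3, 34.1 and 40.5 in mtOGG1 females, against 27.9, 39.6 and 35.1 in control females for Mpg. Pcna, the sliding clamp of DNA polymerases, had -0.14. The 26 p53 and cell cycle genes had a median of -0.033 with 12 above 0 and 14 below. Around Cdkn1a, Gadd45g, a stress-induced growth arrest gene, had -0.32, Bbc3, which encodes the p53-induced death protein PUMA, 0.28, and Cdc7, a kinase that starts DNA replication, 0.34. The members of this family lay on both sides of 0, and its median was -0.12 without mtOGG1 female 1 and 0.088 without mtOGG1 female 3.

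The 11 genes of the NRF2 and antioxidant response had a median of 0.049 with 6 above 0 and 5 below. Txnrd1, a thioredoxin reductase, had 682, 639 and 551 in mtOGG1 females, against 571, 462 and 605 in control females, a log2 fold change of 0.20, and Nfe2l2, which encodes NRF2 itself, -0.17. The 14 mitochondrial and metabolic genes had a median of -0.025 with 7 above 0 and 7 below. Besides Mto1, Cycs, encoding cytochrome c, had 43.3, 44.4 and 39.6 in mtOGG1 females, against 34.2, 31.7 and 37.3 in control females, a log2 fold change of 0.29 without overlap. Ldha, the lactate dehydrogenase subunit, had -0.21, Sirt1, a deacetylase, 0.15, and Cox5b, a subunit of cytochrome c oxidase and the most abundant member, 7331, 6659 and 6107 in mtOGG1 females, against 6987, 6938 and 7116 in control females. Apart from Mto1, no member of these families had an unadjusted p under 0.05.

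Of the 27 apoptosis genes 17 lay above 0 and 10 below, with a median of 0.039. Hrk, a death protein of neurons, had 125, 101 and 94.3 in mtOGG1 females, against 103, 66.4 and 63.4 in control females, a log2 fold change of 0.48, and Bcl2a1a, a survival protein of immune cells, 0.27. Of the 13 lysosome genes 11 lay above 0 and 2 below, but the values were small, with a median of 0.062, Tcirg1, a proton pump subunit, at 0.25 and Ctsf, a cathepsin, at 0.15. Over all 608 genes 290 (47.7%) lay above 0 and 315 (51.8%) below. The 17 autophagy genes had a median of -0.010, with Atg5, needed to form autophagosomes, at 0.14 and Map1lc3a, a protein of their membrane, at -0.15. The 21 PI3K, Akt and MAPK genes had a median of -0.041 with 8 above 0 and 13 below, and their log2 fold changes lay between -0.26 and 0.27. The 54 histone and chromatin genes had a median of 0.0022 with 31 above 0 and 23 below. Besides Kdm2b, the histone methyltransferase genes Dot1l, Suv39h1 and Suv39h2 had log2 fold changes of -0.33, 0.32 and -0.41, and those of Suv39h1 and Suv39h2, which make the same mark, ran in opposite directions. The 12 panel reference genes had a median of -0.013, with Supt7l at 0.22 and Tbp at -0.18. Of 32 lymphocyte and granulocyte markers 30 stood at the floor in all 6 females.

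**Figure D4:**
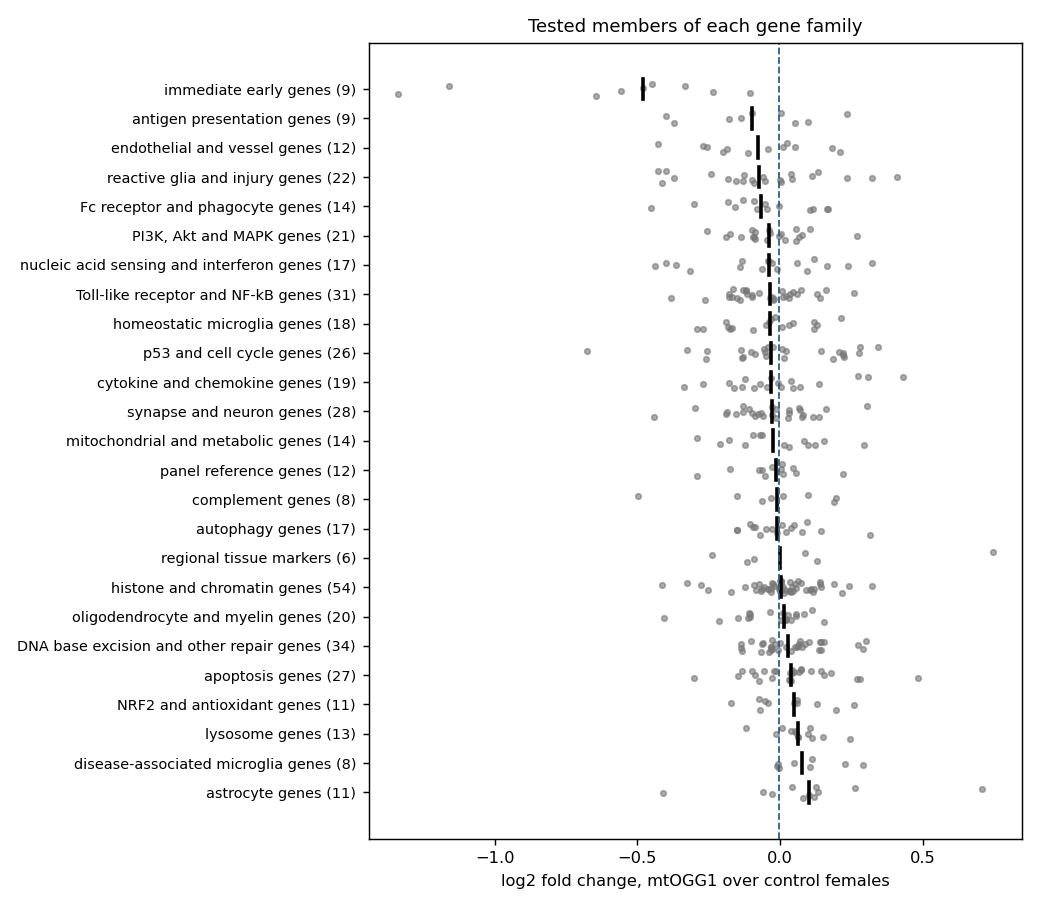
Log2 fold changes of mtOGG1 over control females for the tested members of the 25 families with at least 5 of them (number in brackets), 1 point per gene, with a black bar at the family median and a dashed line at the median of all genes tested. The bar of the immediate early genes stands at -0.48, and those of the other families lie between -0.10 and 0.10.

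The floor set what could be seen. Of the 770 genes 146 stood at 20 in all 6 females, 543 exceeded it in all 6 and 81 in some. Hells, a chromatin remodeller of dividing cells, was the only gene above the floor in all 3 mtOGG1 females and at it in all 3 controls, with 24.6, 26.2 and 22.6 in mtOGG1 females, and no gene showed the reverse. Another 4 genes, named after their values were seen, Cd36, Il2rg, Hdc and Tspan18, exceeded the floor in 2 mtOGG1 and no control females, and 0 did so in no mtOGG1 and 2 control females. In the other direction, 8 genes exceeded it in 1 mtOGG1 and no control female, against 16 in no mtOGG1 and 1 control female. Tspan18, a tetraspanin of vessels, had 20, 26.2 and 42.4 in mtOGG1 females, against 20 in each of the 3 control females. All these values lie close to the floor, where a fitted fold depends on the floor itself. Of the 65 tested genes with at least 1 female at the floor, 27 exceeded it in more mtOGG1 than control females and 20 in fewer.

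The genotype difference in females was then set against that in males, which share no mice with it. No gene passed the interaction test (limma, 0% of 608), and 29 (4.77%) had an unadjusted p under 0.05. Across the 608 genes the log2 fold changes in females and males had a Pearson r of 0.462 and a Spearman rho of 0.313, and 366 genes (60.2%) had the same sign. Genes are not independent replicates, and the log2 fold change of Slc17a6, which set the females numbered 3 apart, was 0.75 in females and 1.37 in males, and that of Ttr 0.13 in females and 2.34 in males. Their part in the likeness of the sexes was not tested. Among the 608 tested genes, all 3 mtOGG1 mice lay below all 3 controls in both sexes for 7. These were Arc, Fos, Cdkn1a, Ifih1, Mto1, Srgn and Hpgds. For 1 gene, Syn2, they lay above the controls in both sexes, and for 1, Itga7, below in females and above in males. In females alone, 3.45% of the tested genes were all lower and 1.81% all higher. The shares in males alone are not given here, and how many joint separations would arise without a shared difference was not tested. For Cdkn1a and Ifih1 the nearest mtOGG1 and control females were nearly level. Hpgds, a prostaglandin D synthase of microglia, falls outside the naming rule and was chosen after its values were seen. The log2 fold changes of Arc were -1.34 in females and -2.06 in males, a difference of 0.72 whose 95% interval ran from -0.14 to 1.58 (adjusted p = 0.959, limma). For Fos they were -1.16 in females and -2.09 in males, a difference of 0.93. Its 95% interval, from 0.031 to 1.83, excluded 0, but the gene did not pass over all genes (adjusted p = 0.932, limma). For Cdkn1a they were -0.68 in females and -1.11 in males, a difference of 0.43 with a 95% interval from -0.33 to 1.20.

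The 5 genes with the smallest interaction p were Lcn2, Itga7, Opalin, Tradd and Enpp6, none of which passed. Lcn2 stood at -0.18 on the log2 scale in females and -1.41 in males (interaction adjusted p = 0.404, limma), with 5 of 6 females at the floor. Opalin had 0.020 in females and 0.70 in males (interaction adjusted p = 0.604, limma). Tradd, an adaptor of the TNF receptor, had -0.18 in females and 0.70 in males, and Enpp6 -0.41 in females and 0.28 in males (interaction adjusted p = 0.892 each, limma). Casp1, at -0.46 in females and 0.19 in males, and Ifitm2, at -0.44 in females and -0.012 in males, also did not pass. By family, the median of the oligodendrocyte genes was 0.013 in females and 0.36 in males, that of the endothelial genes -0.077 in females and -0.28 in males, and that of the immediate early genes -0.48 in females and -0.51 in males. These medians carry no test of their own.

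**Figure D5:**
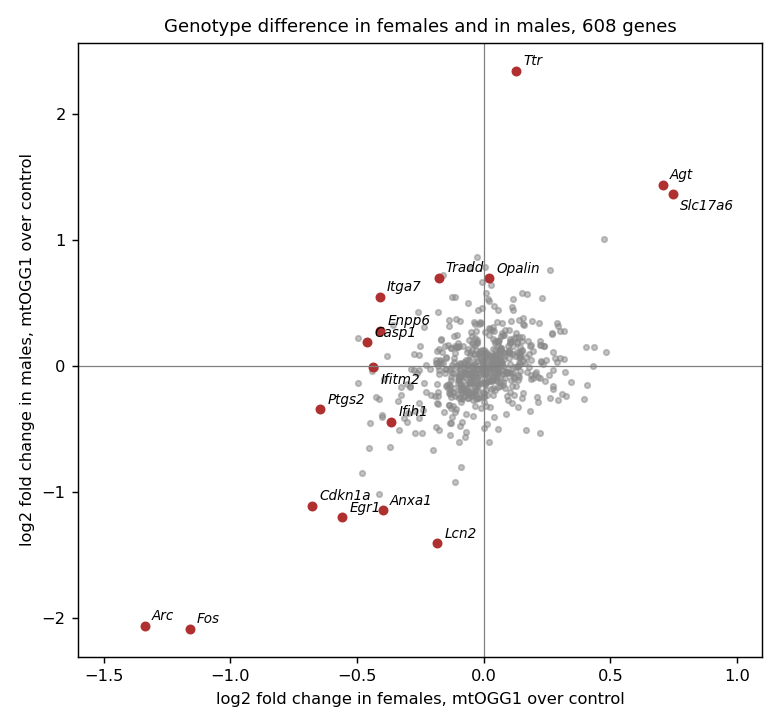
Log2 fold changes of mtOGG1 over control mice for 608 genes, with females on the x axis and males on the y axis, 1 point per gene and named genes in red. Arc and Fos lie at the lower left in both sexes, Lcn2 and Opalin differ from 0 mainly on the male axis, and Itga7 lies at -0.41 in females and 0.55 in males.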

How the data were processed

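Total RNA of the hippocampus of 12 mice was hybridised to nCounter probes, per the labels' protocols. The deposited table holds normalized signal values from the authors' nCounter Advanced Analysis Suite run, as the design text states; the normalization genes and software version are not given in the sources used here. Above 20, gene values are whole counts multiplied by a factor of each mouse (within 0.01 for 100.0% of them, factors of 0.943 to 1.27 in females), values under 20 are set to 20, and control rows are unscaled. Since the floor leaves no complete count table, no count model was used. The labels link to a metabolic panel, whereas the genes are largely those of neuroinflammation. All gene symbols matched the reference table, 763 as current symbols and 7 as synonyms.

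Values were taken as log2(value + 1), which understates folds near the floor, and compared by limma 3.58.1 (R 4.3.3) as 4 group means of 3 mice, trended moderated variances and Benjamini-Hochberg adjustment over the 608 genes above 20 in at least 3 mice. The contrasts were genotype in females and its interaction with sex. The procedure was tested on simulated data. Named are the 20 genes of smallest p, for each of 27 families its 4 members of smallest p and its most abundant member, genes above the floor in all mice of 1 female group and none of the other, the 5 genes of smallest interaction p, and a fixed set; not every gene so chosen is printed. The members and lists were chosen with earlier results of these data known. Alternatives to pseudocount, filter, scaling, variance model, samples, blocking and covariates were run, and the fits with Ttr as a covariate and without both females numbered 3 were added after seeing the data. Figures used matplotlib 3.10.9 in Python 3.11.15.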

Additional observations from a re-analysis of the deposited data

Results flagged for a closer look

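Itga7 was the only tested gene for which all 3 mtOGG1 mice lay below all 3 controls in females and above them in males. Its levels in males were 81.1, 56.4 and 74.0 in mtOGG1 males, against 46.8, 55.3 and 41.0 in control males, beside 46.8, 39.8 and 43.4 in mtOGG1 females, against 53.3, 65.4 and 55.4 in control females. The log2 fold change in females minus that in males was -0.96, with a 95% interval from -1.47 to -0.44, which did not pass over all genes (limma, adjusted p = 0.404).

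Hdc, which encodes histidine decarboxylase, the enzyme that makes histamine, was not tested because it exceeded the floor in 2 of the 12 mice. It averaged 26.6 in mtOGG1 females, with 20, 29.6 and 30.2, and stood at 20 in all 3 control females and in all 6 males.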

How the results depend on the processing

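The count of genes passing in females was 0 in the main setting and 1 (Arc, limma, adjusted p = 0.0425) with Ttr as a covariate, and 0 to 2 with 1 female left out; the other settings, including no filter, gave 0, as did all settings for the interaction. The fit of the 6 females alone had 14 genes with an unadjusted p under 0.05, and that with median centring 30, with 35 in the fit without both females numbered 3, against 18. Genes without overlap numbered 32, against 66 with median centring, where 75.8% were higher in place of 34.4%, and 194 without both females numbered 3, where 2 mice against 2 separate more easily. With the replicate block the count was 0 and Arc kept its value of -1.34 (limma, adjusted p = 0.236). Deviations of same-numbered females from their group means correlated at 0.354, -0.109 and 0.556 for numbers 1, 2 and 3. Whether equal numbers pair the mice was not tested beyond these values. The block changed no call, but the main setting already had 0. Near 0, Ogg1 turned to 0.051 with median centring, 0.021 with panel reference genes, 0.041 with Slc17a6 as a covariate and 0.047 without both females numbered 3, and spanned -0.18 to 0.10 with 1 female left out. Opalin turned to -0.023 with Slc17a6 as a covariate and spanned -0.10 to 0.16 with 1 female left out, Psmb8 spanned -0.025 to 0.38 with 1 female left out, and Agt turned to -0.0054 with Slc17a6 as a covariate. Median centring and panel reference scaling subtract a value per mouse from all genes, so each shifts every log2 fold change by the same amount. The cause of the other changes was not tested. All other genes whose fold change in females is given, Ttr aside, kept their sign in every setting in which they had a value, except Lcn2, which was at 0 without control female 2. Of the family medians, 9 of 459 values moved by more than the spread between mice. That spread exceeded the size of the median itself in most families, so a small count does not mean that signs were kept. Median centring moved Ogg1 from -0.0075 to 0.051 and every family median by the same amount. Medians just below 0, such as -0.036 for homeostatic microglia genes, change sign with it. The floor limits genes under 20 counts, and 3 mice a group limit the precision of all values.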
